A study of Mus musculus with 7 samples.

Results

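The regions described here are the ATAC-seq peaks at 5 genes grouped around Bach2 and plasma-cell fate: Bach1, Bach2, Bcl6, Prdm1 and Xbp1. A peak belonged to a gene if it overlapped the gene body plus 30 kb on each side, with gene bodies from GENCODE M21 on GRCm38 (mm10). By this rule 748 of the 647973 peaks in the 7 deposited lists were members. Merging overlapping peaks of the 7 lists gave 173 separate regions of 145247 in the genome, of which 98 lay at Bach2, 25 at Prdm1, 23 at Bach1, 18 at Bcl6 and 9 at Xbp1.

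Bach2 and its relative Bach1 are repressors of the BTB and basic leucine zipper type that pair with small Maf proteins on Maf recognition elements, whose core is shared with AP-1 sites. In B cells Bach2 represses Prdm1, and Bcl6, a zinc finger repressor best known from germinal centres, represses Prdm1 as well. Prdm1 encodes Blimp-1, which shuts down the B-cell programme, including Bcl6 and Pax5, as plasma cells form. Xbp1 encodes the factor of the unfolded protein response that enlarges the secretory apparatus of plasma cells.

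ATAC-seq marks open chromatin, and the comparisons asked whether these loci opened differently without the ETS factor Erg and how they changed as B-cell development proceeded. WT cells had the genotype Erg fl/fl with no Cre and were sorted as pre-proB, proB and preB cells. Erg KO pre-proB cells were Rag1CreT/+;Ergdelta/delta, so Erg was lost in lymphoid progenitors and their descendants, in which the Rag1 locus drives Cre. Rescue pre-proB, proB and preB cells had that same genotype plus IgHVH10tar, a knocked-in heavy chain allele that is already rearranged. Each of the 7 groups was 1 library, neither the number of mice behind a library nor their age was given in the labels, and every value below is therefore without replicates and without a test. Intervals at 95% cover counting error alone.

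The lists held 76465 to 105649 peaks, and read depth was not given with them. The fold of a peak is the pileup at its summit plus 1, over a background plus 1, and from the steps of the folds the background came to 3.49 to 4.6 overlapping fragments and the lowest summit called to 10 to 12. A missing peak is thus a summit under the calling threshold and not proof of closed chromatin. Promoters of B lineage genes had peaks for 9 of 10 genes in WT pre-proB, 6 of 10 in Erg KO pre-proB, 7 of 10 in Rescue pre-proB and 10 of 10 in each proB and preB library. Plasmacytoid dendritic cell promoters were open in 4 of 4 cases in every library, and Cd3d, Cd3e, Ncr1 and Elane, which define T, NK and neutrophil lineage cells, had no promoter peak in any. Over the whole lists 1 to 4 of 6 T cell, 2 to 4 of 5 NK cell, 3 to 4 of 5 myeloid and 3 to 4 of 4 stem and progenitor promoters had a peak. The share of all gene promoters with a peak was not examined. The promoter of Erg itself had a peak in every library, at folds of 9.65 to 44.9, which says nothing on the deleted exons. For the 3 Rescue libraries the title and the source name gave different stages, and the titles were used. At the 5 loci 4.76% of WT pre-proB peaks were missing from the library titled Rescue pre-proB, against 28.6% from the library whose source name says pre-proB, beside 5.88% and 35.6% of the whole WT list.

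The sequences below are 300 bases around the strongest summit of 9 regions, chosen after their values were seen as ones that differed between stages or genotypes. They are on the plus strand of GRCm38, in lower case, and capitals mark matches to any of the 9 patterns that are spelled out with the pattern shares further on.
Prdm1, 79.4 kb upstream of the main start site, chr10:44537952-44538251: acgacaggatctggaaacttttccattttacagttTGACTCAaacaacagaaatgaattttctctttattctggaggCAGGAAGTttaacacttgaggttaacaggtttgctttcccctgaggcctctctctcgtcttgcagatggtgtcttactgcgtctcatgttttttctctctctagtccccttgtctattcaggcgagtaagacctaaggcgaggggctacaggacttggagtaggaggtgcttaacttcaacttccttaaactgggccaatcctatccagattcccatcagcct
Prdm1, 70.8 kb upstream, chr10:44529431-44529730: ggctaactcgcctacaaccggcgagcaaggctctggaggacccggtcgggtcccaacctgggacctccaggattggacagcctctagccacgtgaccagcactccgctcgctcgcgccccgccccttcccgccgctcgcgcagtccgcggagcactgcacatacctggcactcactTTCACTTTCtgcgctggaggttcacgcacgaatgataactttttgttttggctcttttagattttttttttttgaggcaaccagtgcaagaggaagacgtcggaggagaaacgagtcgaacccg
Prdm1 intron 4, chr10:44449736-44450035: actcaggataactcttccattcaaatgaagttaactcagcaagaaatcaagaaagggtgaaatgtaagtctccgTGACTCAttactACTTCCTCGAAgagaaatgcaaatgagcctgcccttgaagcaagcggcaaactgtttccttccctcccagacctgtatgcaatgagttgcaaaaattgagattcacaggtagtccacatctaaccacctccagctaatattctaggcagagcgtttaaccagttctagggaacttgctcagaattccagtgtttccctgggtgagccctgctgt
Bach2, 6.91 kb upstream, chr4:32231749-32232048: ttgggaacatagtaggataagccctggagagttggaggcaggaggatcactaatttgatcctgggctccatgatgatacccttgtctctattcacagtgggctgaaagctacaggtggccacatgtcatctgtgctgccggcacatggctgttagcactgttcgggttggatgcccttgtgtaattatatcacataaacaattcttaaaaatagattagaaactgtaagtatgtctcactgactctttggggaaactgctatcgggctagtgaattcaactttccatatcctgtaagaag
Bach2 intron 1, chr4:32258132-32258431: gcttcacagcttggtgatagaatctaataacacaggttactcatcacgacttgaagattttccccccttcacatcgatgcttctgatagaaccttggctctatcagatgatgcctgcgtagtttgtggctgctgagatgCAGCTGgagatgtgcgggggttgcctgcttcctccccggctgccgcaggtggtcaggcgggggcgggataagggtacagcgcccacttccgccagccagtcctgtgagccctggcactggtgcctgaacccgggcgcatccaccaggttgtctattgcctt
Bach2 intron 3, chr4:32424497-32424796: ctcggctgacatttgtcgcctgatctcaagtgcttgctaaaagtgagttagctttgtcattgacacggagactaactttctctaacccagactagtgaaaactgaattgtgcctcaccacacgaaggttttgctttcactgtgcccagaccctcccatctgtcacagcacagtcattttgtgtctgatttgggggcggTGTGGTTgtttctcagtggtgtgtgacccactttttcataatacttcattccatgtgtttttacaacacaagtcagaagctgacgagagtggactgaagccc
Xbp1, 11.2 kb upstream, chr11:5509321-5509620: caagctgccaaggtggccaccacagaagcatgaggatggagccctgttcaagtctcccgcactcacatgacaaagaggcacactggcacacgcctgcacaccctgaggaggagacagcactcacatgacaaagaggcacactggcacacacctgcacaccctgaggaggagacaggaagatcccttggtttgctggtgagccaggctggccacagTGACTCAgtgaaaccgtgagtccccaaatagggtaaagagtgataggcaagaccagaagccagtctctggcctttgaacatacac
Bcl6, 4.6 kb upstream, chr16:23993301-23993600: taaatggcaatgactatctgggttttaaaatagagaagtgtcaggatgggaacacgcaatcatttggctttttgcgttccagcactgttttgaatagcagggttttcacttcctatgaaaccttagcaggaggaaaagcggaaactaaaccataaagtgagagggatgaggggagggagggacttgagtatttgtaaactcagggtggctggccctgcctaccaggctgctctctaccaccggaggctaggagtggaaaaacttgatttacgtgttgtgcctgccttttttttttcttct
Bach1, 27.4 kb upstream, chr16:87671370-87671669: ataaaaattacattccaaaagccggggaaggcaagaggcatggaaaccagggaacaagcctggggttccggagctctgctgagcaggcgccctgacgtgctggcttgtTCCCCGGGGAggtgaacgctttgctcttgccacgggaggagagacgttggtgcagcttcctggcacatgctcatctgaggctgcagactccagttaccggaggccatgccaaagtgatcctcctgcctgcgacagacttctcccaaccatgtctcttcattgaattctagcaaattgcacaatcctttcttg
In these windows the core TGAGTCA (read as TGACTCA on the other strand) stands in the distal Prdm1 element, in Prdm1 intron 4 and upstream of Xbp1. The distal Prdm1 element also holds the ETS pattern CAGGAAGT, Prdm1 intron 4 holds overlapping matches to the PU.1 and BCL6 patterns, and the element 70.8 kb upstream of Prdm1 holds TTCACTTTC, which is the pattern of PRDM1 and IRF factors on the other strand. The elements upstream of Bach2 and Bcl6 hold none of the 9 patterns.

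WT and Erg KO pre-proB shared nearly all peaks at the 5 loci, to about the degree that the whole lists did. Of 105 WT pre-proB peaks 6 had no overlapping Erg KO peak (5.71%, Wilson interval 2.64 to 11.9), beside 6.88% of the whole WT list. Of 108 Erg KO peaks 12 had no WT peak (11.1%, 6.47 to 18.4), beside 13.6% of the whole list. These unshared peaks were weak, with a median fold of 3.39 in WT and 3.85 in Erg KO, where shared peaks had medians of 10.7 and 10.6. At the 93 regions with a peak in both libraries, 0 were higher and 0 were lower in Erg KO by 2-fold or more once the median ratio of all shared regions was taken out, beside 0.185% and 0.332% of all shared regions, and the most changed region differed 1.77-fold. Bach2 kept 51 of 53 WT pre-proB peaks and Prdm1 kept 15 of 17. The study lists Bach2 among the transcription factors whose RNA was deregulated in Erg KO pre-proB cells, and RNA was not analysed here.

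Rescue pre-proB cells, which lack Erg as well, gave a like picture. WT pre-proB had 5 of 105 peaks without a Rescue pre-proB peak (4.76%, beside 5.88% of the list), and Rescue pre-proB had 22 of 119 without a WT peak (18.5%, beside 15.6%). None of 95 shared regions passed 2-fold in either direction (background 0.196% higher and 0.471% lower in Rescue). Between both Erg-deficient pre-proB libraries, 5 of 108 Erg KO peaks (4.63%, beside 6.57%) and 15 of 119 Rescue peaks (12.6%, beside 9.81%) were unshared, and 0 of 99 shared regions passed 2-fold (background 0.0589% higher and 0.0906% lower in Rescue).

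At the proB stage 15 of 106 WT peaks were missing in Rescue (14.2%, beside 20.6%) and 25 of 113 Rescue peaks in WT (22.1%, beside 19.8%). With every list cut to the length of the shortest, the first of these shares stayed below the whole list (16.2% beside 19.8%). With lists cut to 38232 peaks it lay above (31.7% beside 17.4%). Of 85 shared regions 4 were higher in Rescue proB by 2-fold or more (background 5.19%) and 9 were lower (background 6.67%), and 5 of those 9 lay at Bach1. At the preB stage 14 of 89 WT peaks were missing in Rescue (15.7%, 9.61 to 24.7, beside 8.02%) and 33 of 108 Rescue peaks in WT (30.6%, 22.7 to 39.8, beside 17.9%). None of the 71 preB regions shared between genotypes passed 2-fold (background 2.2% higher and 1.26% lower in Rescue). The excess over the whole lists at the preB stage lay at Bach2, where 13 of 44 WT peaks (29.5%) and 25 of 56 Rescue peaks (44.6%) were unshared. Without Bach2 the shares were 2.22% and 15.4%, below those of the whole lists. With every list cut to the length of the shortest, the excess remained in WT preB (21.3%, 14.1 to 31.0, beside 11.3%). In Rescue preB it was then smaller, with an interval that spanned the whole list (17.6%, 11.0 to 27.1, beside 12.8%). With lists cut to 38232 peaks the excess was gone in Rescue preB (5.56% beside 9.61%) and small in WT preB (10.5% beside 9.07%).

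**Figure D1:**
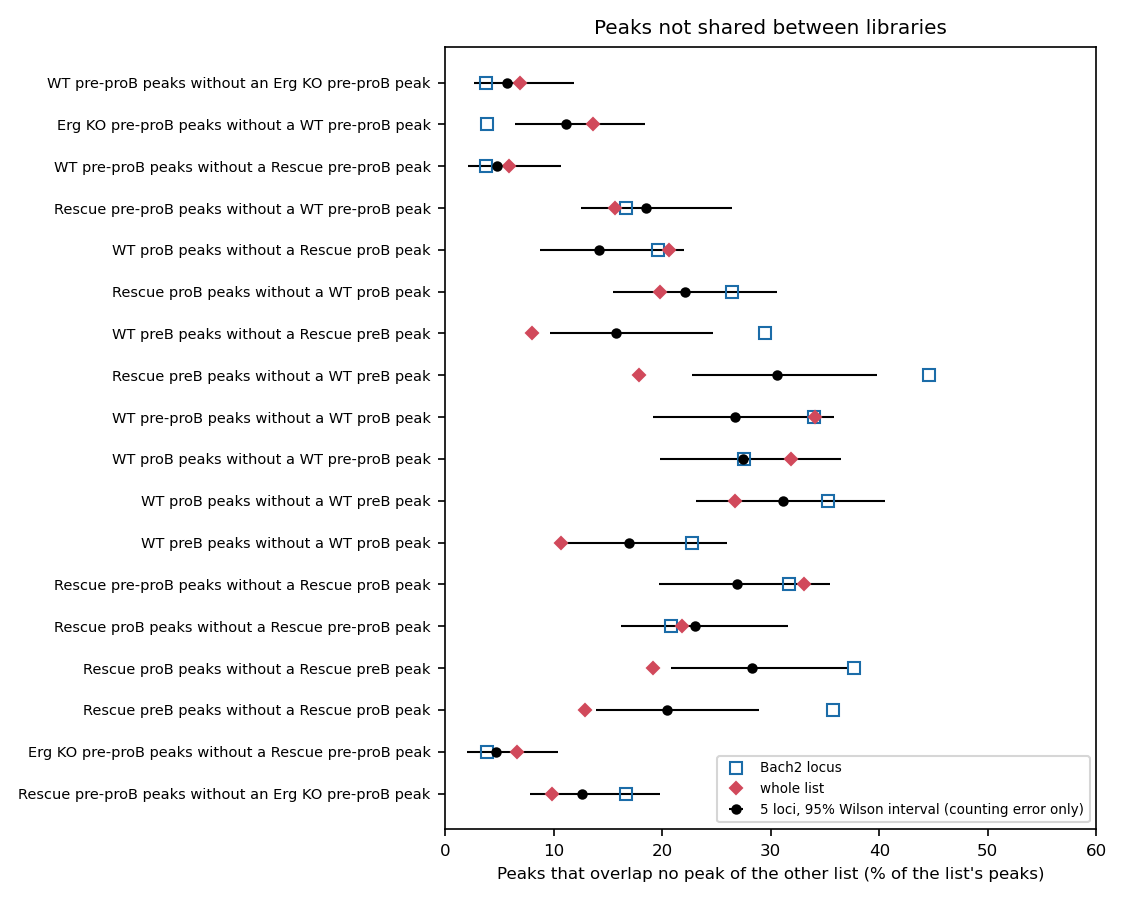
Share of peaks (%, horizontal axis) that overlap no peak of a second list, for 9 pairs of libraries read in both directions. Black points are the 5 loci together with 95% Wilson intervals, open squares the Bach2 locus and red diamonds the whole list. The black points of the pre-proB genotype pairs lie at 18.5% or below, while the Bach2 squares of the preB genotype pair lie at 29.5% and 44.6%.

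Shares between neighbouring stages of a genotype ran from 16.9% to 31.1%, against 4.76% to 18.5% between WT and Erg-deficient pre-proB and 14.2% to 30.6% between WT and Rescue at the later stages. From WT pre-proB to proB 28 of 105 peaks were not found again (26.7%, beside 34.1%) and 29 of 106 proB peaks were without a pre-proB peak (27.4%, beside 31.9%). Of the 71 regions open in both, 18 were lower in proB by 2-fold or more (background 15.0%) and 7 were higher (background 14.8%). From WT proB to preB 33 of 106 peaks (31.1%, beside 26.7%) were not found again and 15 of 89 (16.9%, beside 10.7%) had no proB peak, and of 70 shared regions 0 were higher (background 4.46%) and 5 lower in preB (background 9.34%). In Rescue 32 of 119 pre-proB peaks had no proB peak (26.9%, beside 33.1%) and 26 of 113 proB peaks had no pre-proB peak (23.0%, beside 21.8%). Of 84 regions shared between those 2 libraries, 9 were higher in Rescue proB (background 11.0%) and 21 were lower (background 18.7%). The median log2 ratio of all shared regions, which was taken out, was -0.30 in that comparison, and without this centring 4 were higher and 32 lower. Uncentred shares over all shared regions were not examined, so the uncentred counts here and below have no background and give no result about these loci. From Rescue proB to preB 32 of 113 (28.3%, beside 19.1%) and 22 of 108 (20.4%, beside 12.9%) were unshared, and of 80 shared regions 0 were higher (background 1.99%) and 4 lower in Rescue preB (background 4.41%), or 2 higher and 4 lower without taking out the median of 0.14.

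Followed one by one, 50 of the 173 regions were open in all 7 libraries (28.9%, beside 32.0% of all regions in the genome) and 43 in 1 library alone (24.9%, beside 17.8%). In 27 regions a peak was called in pre-proB cells and in no later library (15.6%, beside 22.5%), and in 51 the peak was called at the proB or preB stage and in no pre-proB library (29.5%, beside 23.5%). By place, 105 regions were intronic, 31 upstream, 22 downstream, 7 in the long 5′ part of the Prdm1 gene record, 6 at promoters and 2 in exons, and all 6 promoter regions were open in every library.

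**Figure D2:**
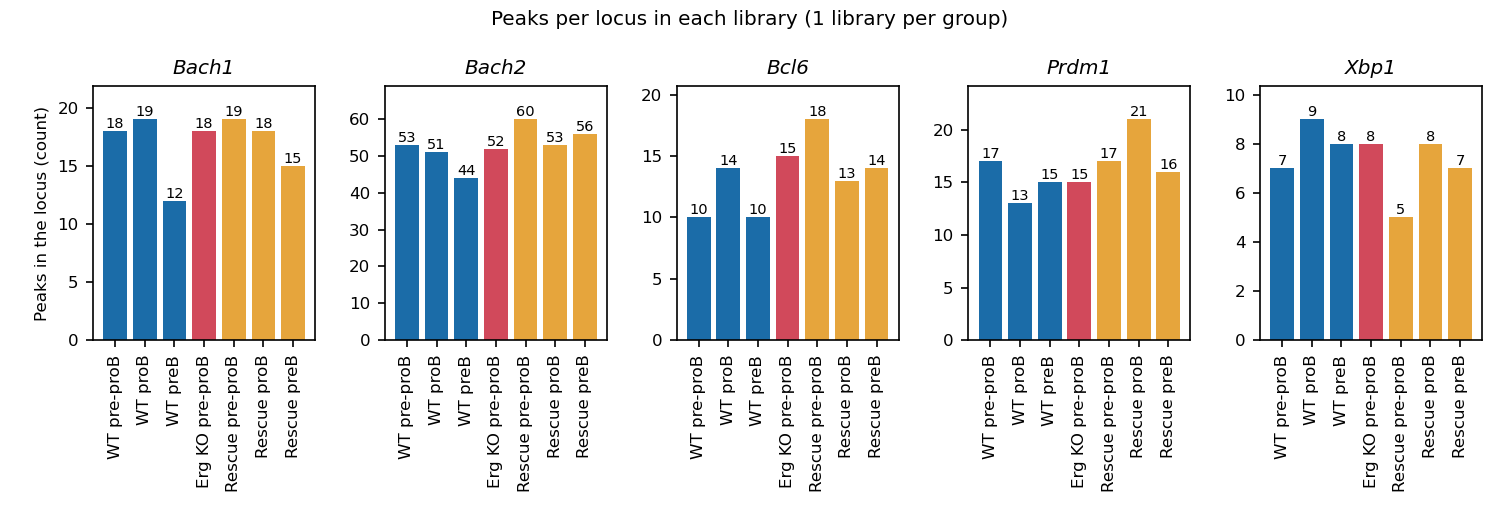
Number of peaks (vertical axis, from 0, a separate scale for each gene) in each of the 7 libraries, 1 panel per gene. Blue bars are WT, red Erg KO and orange Rescue. Bach2 ranges from 44 to 60, and the highest Prdm1 bar is Rescue proB at 21.

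Bach2 spans 347.3 kb of chromosome 4 (chr4:32238804-32586108, plus strand) and carried 53, 51 and 44 peaks in WT pre-proB, proB and preB, 52 in the Erg KO library, and 60, 53 and 56 over Rescue pre-proB, proB and preB. Its promoter region had folds of 74.6, 53.4 and 83.7 in the WT stages, 60.1 in Erg KO and 74.5, 69.9 and 89.1 in the Rescue stages. The promoter was therefore lowest in WT proB and highest in the preB libraries of each genotype, within a span that was narrow beside that of the introns. Of the 98 regions 80 were intronic, with 19 in intron 1, 33 in intron 2, 12 in intron 3, 10 in intron 4 and 6 in intron 5.

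A set of Bach2 intronic elements had higher folds in all 3 pre-proB libraries than afterwards. The strongest element inside the gene, in intron 1 at 19.5 kb from the main start site (chr4:32257494-32258960), had folds of 89.6, 88.3 and 97.9 in WT, Erg KO and Rescue pre-proB, then 40.6 and 41.6 in WT proB and preB, with 44.1 and 45.4 for the same Rescue stages. It was called throughout, and the pre-proB and later values did not overlap. Also in intron 1, a region at 41.8 kb stood at 26.9, 29.3 and 42.4 in the same pre-proB order, at 4.06 in WT proB, 8.24 and 3.92 in Rescue proB and preB, and was uncalled in WT preB. In intron 2 the element at 105 kb had pre-proB folds of 36.8, 36.3 and 48.6, against 4.62 and 5.7 in WT proB and preB and 13.6 and 9.28 in Rescue proB and preB.

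Intron 3 held elements that were uncalled in WT proB. The region at 183 kb (chr4:32421493-32422073) had folds of 32.2, 33.7 and 39.1 in WT, Erg KO and Rescue pre-proB, no WT proB peak, 4.82 in WT preB, and 6.46 and 4.13 in Rescue proB and preB. The neighbour at 186 kb, whose sequence is given above, had 17.8, 22.4 and 25.7 in the pre-proB libraries, 5.12 in Rescue proB and no peak in the other 3. The region at 247 kb had 21.1, 26.8 and 28.4, no WT proB or WT preB peak, and 5.35 and 5.16 in Rescue proB and preB. A coding region of exon 6 (chr4:32574553-32575822) had folds of 50.8, 60.7 and 68.1 in the pre-proB libraries, 4.98 in WT proB, 12.9 in Rescue proB, 4.13 in Rescue preB and no peak in WT preB.

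Over the 39 Bach2 regions open in both WT proB and Rescue proB, 3 were higher in Rescue by 2-fold or more (7.69%, beside 5.19%) and 2 were lower (5.13%, beside 6.67%). Of the 34 Bach2 regions open in both WT pre-proB and WT proB, 14 were lower in proB by 2-fold or more (41.2%, beside 15.0% of all such regions) and 2 were higher (5.88%, beside 14.8%). In Rescue the figures were 14 of 41 lower (34.1%, beside 18.7%) and 5 higher (12.2%, beside 11.0%). Markers of plasmacytoid dendritic cells, which carry B220 as pre-proB cells do, moved with these elements for part of their list. The study's surface definition of pre-proB cells requires them to lack CD11c. The Siglech promoter had folds of 101, 103 and 113 in WT, Erg KO and Rescue pre-proB against 18.6 to 54.5 later, and Ccr9 had 29.5, 24.6 and 27.5 against 8.12 to 13.2. Bst2 had 49.6, 82.8 and 92.4 against 33.2 to 35.1, and Tcf4 was at 59.2 to 62.4 against 62.8 to 144. Their part in the Bach2 pattern was not tested.

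A smaller set ran the other way. The region 6.91 kb upstream of Bach2 (chr4:32231460-32232259) had folds of 7.37 (5.24 to 10.1), 6.05 (4.19 to 8.46) and 5.36 (3.65 to 7.62) in WT, Erg KO and Rescue pre-proB, 30.1 and 34.8 in WT proB and preB, and 25.2 and 38.0 in Rescue proB and preB. The 3 pre-proB values did not overlap the 4 later ones, but the region was chosen after its values were seen. At 18.8 kb upstream the folds were 13.8, 13.6 and 13.2 in the pre-proB libraries, 26.2 and 45.4 in WT proB and preB, and 32.1 and 29.3 in Rescue. In intron 2 at 163 kb they were 3.3, 3.85 and 5.0, then 9.42 and 16.2 in WT and 10.5 and 21 in Rescue. The coding region of exon 7 had 14.8 in WT proB, 4.6 in WT preB and 3.51 in Rescue preB, and no peak in the other 4 libraries.

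Intron 2 held further elements of several patterns. There the element at 120 kb was strong everywhere, with folds of 56.4, 55.5 and 59.2 in WT, Erg KO and Rescue pre-proB, 39.9 and 35.9 in WT proB and preB and 54.8 and 54.5 in Rescue. At 113 kb the fold was highest in WT proB at 19.9, with 12.8, 9.71 and 12.2 in the pre-proB libraries, 7.35 in Rescue proB, 3.51 in WT preB and no Rescue preB peak. At 97 kb Rescue proB had 9.58 where WT proB and preB had none, the pre-proB libraries had 5.04, 5.31 and 7.33, and Rescue preB had 3.3. At 174 kb the pre-proB folds were 12.2, 16.7 and 12, as in the first set, against 3.14 to 4.82 where called later.

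Most unshared Bach2 regions were fainter. In intron 1 the region at 42.7 kb was called in the 3 pre-proB libraries alone, at 7.56, 8.06 and 10.5, and the region at 27.7 kb in WT proB, WT preB and Rescue preB alone, at 6.28, 6.14 and 4.95. The one at 36.2 kb had 3.12 to 6.25 in 5 libraries and no peak in WT proB or Rescue preB. The region at 168 kb had 4.58 and 5.54 in Erg KO and Rescue pre-proB, 3.73 in WT preB and no other peak, and the one 17.2 kb upstream had 3.49, 3.88 and 4.21 in WT pre-proB, WT proB and Erg KO. WT pre-proB alone had a peak 374 kb downstream of the start site, at 4.26, and Rescue preB alone one in intron 5, at 4.54. Of the 98 regions 32 were called in 1 library alone (32.7%, 24.2 to 42.4, beside 17.8% of all regions), and the highest fold among them was 4.54. Of the 32, 12 came from Rescue preB, 7 from Rescue pre-proB and 6 from WT preB. How single-library regions split by library over the genome was not examined. The strongest peak in the Bach2 window, with folds of 145 to 203, lay at the window's edge at the promoter of the neighbour Casp8ap2 and is no Bach2 element by its annotation.

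**Figure D3:**
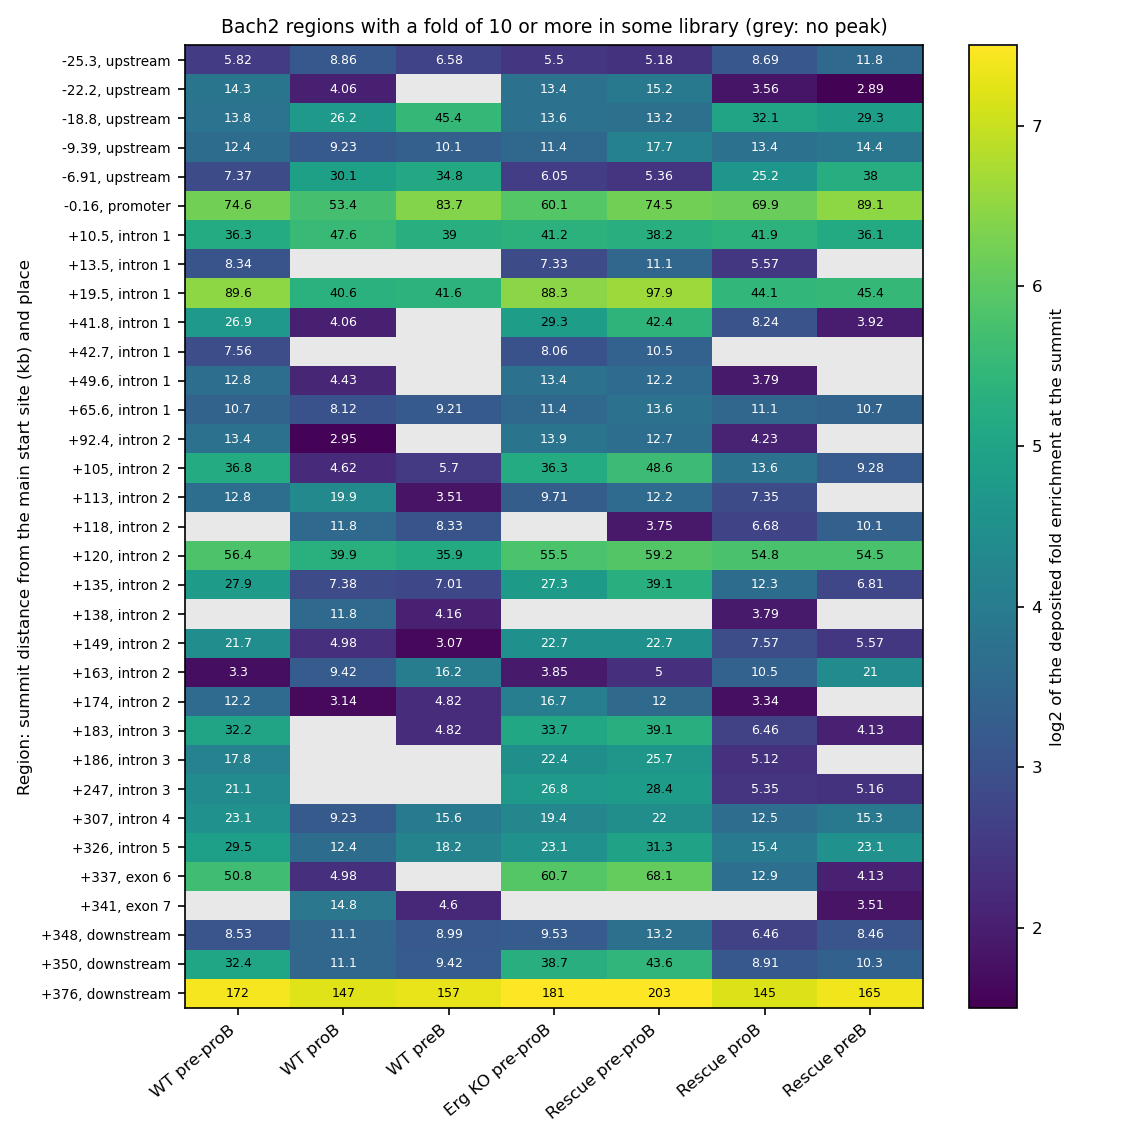
Fold at the summit (numbers in the cells, colour on a log2 scale, grey for no peak) of the 33 Bach2 regions that reached a fold of 10 in some library, ordered by distance from the main start site in kb. Columns are the 7 libraries. Intron 3 regions at +183, +186 and +247 kb are bright in the 3 pre-proB columns, and the region 6.91 kb upstream (negative on the axis) is bright in the 4 proB and preB columns.

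Prdm1 is on the minus strand of chromosome 10 (chr10:44437177-44528501), and its main start site at 44458748 belongs to the coding transcripts. It had 17, 13 and 15 peaks in WT pre-proB, proB and preB, 15 in the Erg KO library, and 17, 21 and 16 over Rescue pre-proB, proB and preB. Its promoter was open although none of the sorted stages is a plasma cell. The promoter folds were 51.6, 51.3 and 56.8 in WT, Erg KO and Rescue pre-proB, 70.2 and 76.0 in WT and Rescue proB, and 105 and 116 in WT and Rescue preB, so the order of stages was the same in both genotypes and genotypes at a stage lay close together. A second promoter region, 1.45 kb downstream, was weak, with 5.23, 5.35 and 6.36 in the WT stages, 4.03 in Erg KO and 3.93, 6.46 and 7.01 in the Rescue stages. With lists cut to 76465 peaks it was lost in Erg KO and Rescue pre-proB, and with 38232 in all libraries.

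Of the 5 loci, Prdm1 held the strongest WT pre-proB peak that both Erg-deficient pre-proB libraries lacked. At 79.4 kb upstream of the main start site (chr10:44537642-44538573) WT pre-proB had a fold of 6.98 (4.92 to 9.63, from a summit of 35 fragments), and neither Erg KO pre-proB nor Rescue pre-proB had a peak. The later libraries all had one, at 40.4 and 29.4 in WT proB and preB and at 30.1 and 29.9 in Rescue proB and preB, which also lack Erg. The pattern was the same when every list was cut to the length of the shortest, and the WT pre-proB peak dropped out when the lists were cut to 38232 peaks. The deposited lists held no Erg KO summit below 12 fragments. Promoters of Pax5, at a fold of 3.68, and Pou2af1, at 7.37, were likewise called in WT pre-proB and in neither Erg-deficient pre-proB library. With lists cut to 76465 peaks the WT pre-proB peak was gone at Pax5 and kept at Pou2af1. Whether WT pre-proB held some cells of a later stage was not tested. The region beside the 79.4 kb element, 80.5 kb upstream, was open in all 7 libraries at 12.8 to 18.8.

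The neighbour at 70.8 kb upstream (chr10:44529028-44530210) was open in all libraries, with folds of 24.2, 22.2 and 25.2 in WT, Erg KO and Rescue pre-proB, 58.2 and 58.3 in WT proB and preB, and 47.0 and 67.3 in Rescue. It lies just 5′ of the start at 44528501 of a retained-intron transcript, the 5′ end of the gene record. At 68.3 kb upstream the folds were 6.01, 7.51 and 5.72 in the pre-proB libraries, 14.4 and 18.0 in WT proB and preB, and 13.6 and 18.4 in Rescue. In intron 4 a region at 8.86 kb (chr10:44449590-44450223) was called in the 4 later libraries alone, at 10.3 and 10.7 in WT proB and preB and 9.8 and 9.7 for the same Rescue stages. Its neighbour in intron 4 at 10.5 kb was open in every library, from 14.9 to 23.1. A region 16.8 kb upstream had no peak in WT proB alone, with 6.24 in Rescue proB and 10.3 to 16.6 in the other 5. Of the fainter ones, the region 32.8 kb upstream was called in WT preB and Rescue preB alone, at 3.07 and 6.19, and one 30.4 kb downstream in WT and Rescue pre-proB alone, at 3.3 and 5.18. Of the 12 Prdm1 regions open in both WT pre-proB and proB, 4 were higher in proB by 2-fold or more (33.3%, beside 14.8% of all such regions) and 0 were lower (beside 15.0%). In Rescue, of 14 such regions, 3 were higher (21.4%, beside 11.0%) and 2 were lower (14.3%, beside 18.7%).

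At Prdm1 8 of 21 Rescue proB peaks had no WT proB peak (38.1%, 20.8 to 59.1, beside 19.8% of the whole list). In the other direction 0 of 13 WT proB peaks were unshared (beside 20.6%). Single-library regions were 5 of the 25 at Prdm1, with an interval (8.86% to 39.1%) that spanned the 17.8% of all regions. Rescue proB held 4 of these 5. They lay in introns 7, 5 and 3, at folds of 8.24 (5.84 to 11.3) in intron 7, 5.57 (3.65 to 8.18) in intron 5, and 3.79 and 3.56 in intron 3. The first 2 were still called, and in Rescue proB alone, with lists of equal length at 76465 peaks, the last 2 were not, and none of the 4 was called at 38232 peaks. In the same library and no other, the promoters of Jchain, which encodes the joining chain of secreted antibody, and Tnfrsf17, which encodes the plasma-cell receptor BCMA, had peaks at 11.1 and 6.68, so that 6 of 6 plasma-cell marker promoters were open against 4 of 6 in every other library. With lists cut to 76465 peaks both the Jchain and the Tnfrsf17 peak were still called in Rescue proB alone. With 38232 the Jchain peak stayed and the Tnfrsf17 peak was lost. Sdc1, Derl3 and Ell2 promoters were open in all 7 at folds of at least 38.5, 123 and 159. The part of plasma cells in the Rescue proB regions was not tested, and by its source name this library is preB.

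**Figure D4:**
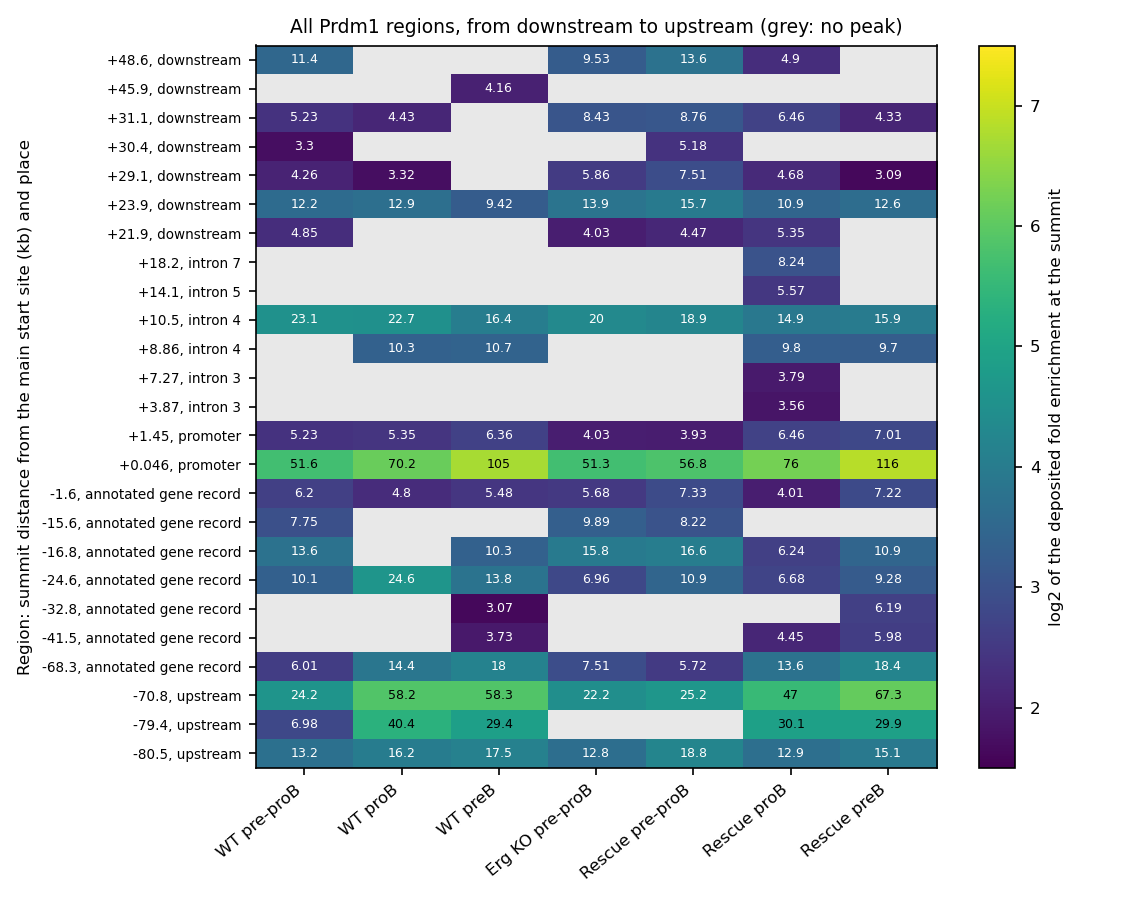
Fold at the summit (numbers in the cells, colour on a log2 scale, grey for no peak) of all 25 Prdm1 regions, ordered from downstream to upstream by distance from the main start site in kb. Columns are the 7 libraries. The row 79.4 kb upstream is grey in Erg KO and Rescue pre-proB alone, and 4 intronic rows are filled in Rescue proB alone.

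Bcl6, on the minus strand of chromosome 16 (chr16:23965052-23988852), had 10, 14 and 10 peaks in the WT stages, 15 in the Erg KO library and 18, 13 and 14 over the Rescue stages. Its promoter varied little, from 38.0 in WT pre-proB to 51.7 in WT preB. The element 4.6 kb upstream (chr16:23993148-23994071) followed the pre-proB pattern, with folds of 34.3, 26.2 and 35.2 in WT, Erg KO and Rescue pre-proB, 5.17 and 5.26 in WT proB and preB, and 11.1 and 8.67 in Rescue. Of the 15 Erg KO pre-proB peaks 6 had no WT pre-proB counterpart (40%, 19.8 to 64.3, beside 13.6% of the whole list). Of the 18 Rescue pre-proB peaks 9 had none (50%, 29.0 to 71.0, beside 15.6%). None of these unshared peaks exceeded a fold of 5.72. The one at 5.72, 29.0 kb upstream of the main start site in Rescue pre-proB, stood at 3.85 in Erg KO, and the region was called in every library other than WT pre-proB, at 7.38 in WT proB. With lists cut to 76465 peaks, no Bcl6 region was called in Erg KO and not in WT pre-proB. In Rescue pre-proB the region 29.0 kb upstream was then the only such one. In intron 1 the elements at 6.26 and 4.42 kb were open in all 7 libraries, at 23.8 to 31.8 and 17.4 to 26.1, as was the one 23.5 kb upstream, at 11.1 to 19.2. A region 26.2 kb downstream was called at 3.49 to 6.36 in all libraries other than Erg KO. A region 27.6 kb upstream had 10.9 in WT proB, 4.29 in Rescue pre-proB and 4.9 in Rescue proB.

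Xbp1 is compact (chr11:5520659-5525893, plus strand) and had 7, 9 and 8 peaks in the WT stages, 8 in the Erg KO library and 5, 8 and 7 over the Rescue stages. Its promoter had folds of 44.7 to 61.4 over the 7 libraries. The element 11.2 kb upstream (chr11:5508985-5510018) was open in all 7 libraries with a wide contrast between stages, at folds of 61.5, 57.5 and 67.2 in WT, Erg KO and Rescue pre-proB, 9.23 and 7.89 in WT proB and preB, and 15.8 and 5.98 in Rescue proB and preB. At 19.3 kb upstream the contrast was milder, 41.3, 34.6 and 39.9 against 20.5 and 22.8 in WT proB and preB and 19.4 and 23.1 for the same Rescue stages. The region 8.15 kb upstream differed little anywhere, from 20.8 to 25.1. A region 6.35 kb downstream was called in Erg KO and Rescue proB alone, at 4.21 and 6.01. The strongest region downstream of Xbp1 lay at the Ccdc117 promoter, at 25.5 to 46.7.

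Bach1 (chr16:87698945-87733346, plus strand) had 18, 19 and 12 peaks in the WT stages, 18 in the Erg KO library and 19, 18 and 15 over the Rescue stages. Its promoter was the strongest of the 5, with folds of 112, 126 and 129 in WT, Erg KO and Rescue pre-proB, 139 and 147 in WT and Rescue proB, and 156 and 173 in WT and Rescue preB. Of the 16 Bach1 regions open in both WT proB and Rescue proB, 5 were lower in Rescue proB by 2-fold or more (31.2%, beside 6.67% of all such regions). The intron 1 region at 10.5 kb had a fold of 32.1 (27.5 to 37.3) in WT proB against 6.24 (4.19 to 8.97) in Rescue proB and 4.11 to 6.59 in the other 5 libraries. In intron 4 at 24.8 kb WT proB had 14.8 and Rescue proB 3.34, with no peak elsewhere. The element 27.4 kb upstream (chr16:87670704-87671932) had 25.8 in WT proB, 14.0 in WT preB, 8.69 and 10.1 in Rescue proB and preB, and no peak in a pre-proB library. The reverse held 42.7 kb downstream of the start site, where the 3 pre-proB libraries had 12, 15.6 and 16.6 and no later library had a peak. Regions at 14.3, 48.0 and 56.1 kb were open in all 7 libraries, at 14.9 to 30.8, 11.8 to 21.4 and 11.1 to 18.5. In intron 4 at 30 kb Erg KO and Rescue pre-proB alone had a peak, at 4.58 and 3.75.

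**Figure D5:**
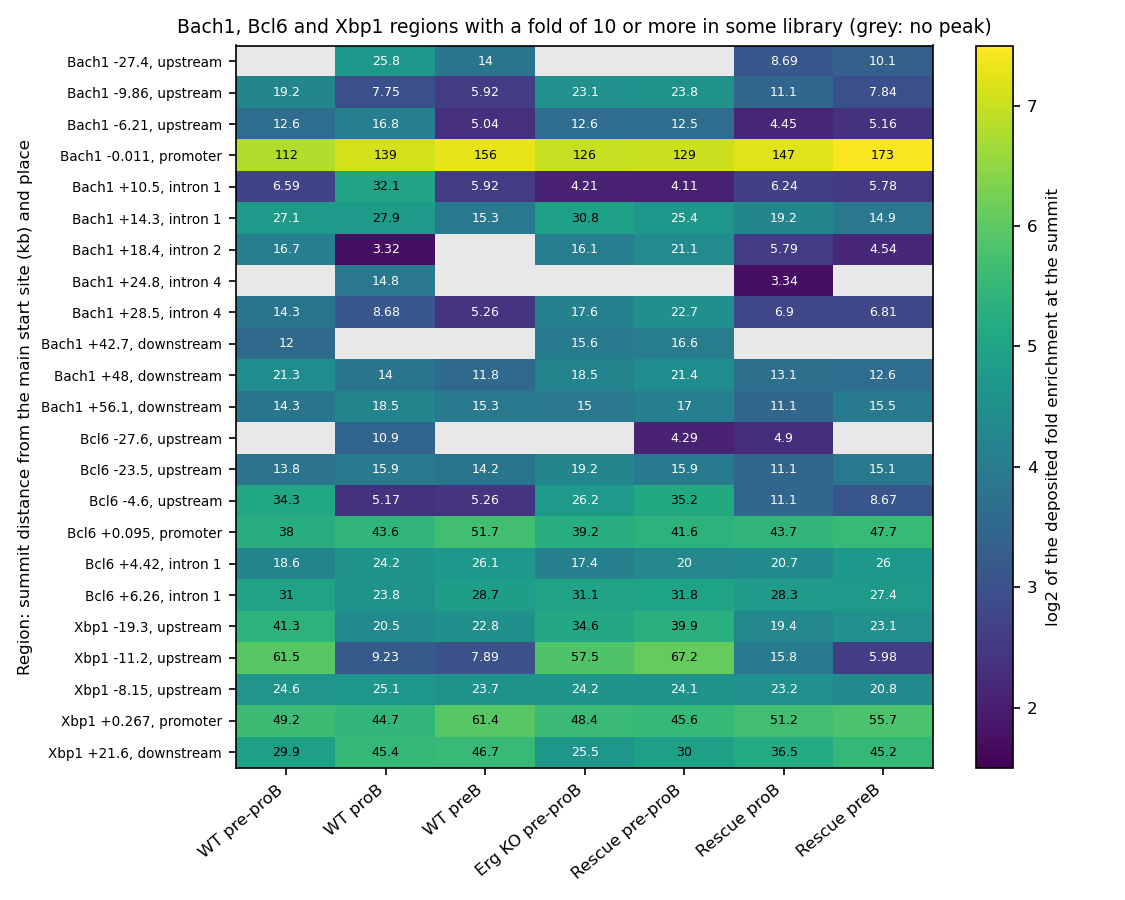
Fold at the summit (numbers in the cells, colour on a log2 scale, grey for no peak) of the 23 regions at Bach1, Bcl6 and Xbp1 that reached a fold of 10 in some library, ordered by gene and distance from its main start site in kb. Columns are the 7 libraries. Xbp1 at 11.2 kb upstream and Bcl6 at 4.6 kb upstream are brightest in the pre-proB columns, and Bach1 at +10.5 kb is bright in WT proB alone.

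Short binding patterns were searched on both strands in 300 bases around the strongest summit, a description of letters and not of binding. The core TGAGTCA of Maf recognition and AP-1 sites was in 19 of the 173 regions (11.0%, 7.14 to 16.5) beside 6.26% of all 145247 regions. By gene it was in 4 of 23 Bach1 regions (17.4%, 6.98 to 37.1), its promoter among them, and in 4 of 25 at Prdm1 (16.0%, 6.4 to 34.7). At Bach2 it was in 9 of 98 (9.18%, 4.91 to 16.5), an interval that spanned the share of all regions. Bcl6 had it in 1 of 18 and Xbp1 in 1 of 9. For the other patterns, the intervals over the 173 regions spanned the share of all regions. The E protein pattern CAGCTG was in 33 (19.1%, 13.9 to 25.6) beside 25.5%, and in 0 of 25 at Prdm1, but in windows of 200 bases its interval (8.55 to 18.5) lay below the share of all regions, 20.2%. The rest were ETS (CNGGAAGT) 9.83% beside 9.81%, PU.1 (GAGGAAGT) 9.25% beside 8.52%, EBF1 (TCCCNNGGG) 7.51% beside 7.59%, RUNX (TGTGGTT) 9.83% beside 13.5%, PRDM1 or IRF (GAAAGTGAA) 0.578% beside 1.24%, BCL6 or STAT (TTCCNNGAA) 4.05% beside 4.05% and XBP1 (GACGTGG) 2.31% beside 1.57%. CNGGAAGT and GAGGAAGT both end in GGAAGT and differ in the first letter, so no single site counts for both.

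Nearly all promoters of the other listed pathway genes had a peak. The share of all gene promoters with a peak was not examined, so these counts cannot be called particular to the pathway. The 8 partners and corepressors (among them Mafk, Mafg, Maff, Bcor, Mta3 and Hdac3), the 7 genes of the unfolded protein response around Xbp1 (Ern1, Atf6, Hspa5, Dnajb9, Edem1, Creb3l2, Sec61b) and the 4 targets of BACH or BCL6 proteins (Hmox1, Trp53, Cdkn2a, Ccnd2) had promoter peaks in all 7 libraries. Mta3, a corepressor partner of Bcl6, had promoter folds of 13.2, 14.8 and 15.5 in WT, Erg KO and Rescue pre-proB and 31.9 to 50.3 later. Of the 13 plasma-cell and germinal-centre genes 11 promoters had a peak in each WT library and in Rescue preB, 9 in Erg KO and in Rescue pre-proB, and 13 in Rescue proB. The genes missing from Erg KO and Rescue pre-proB and present in WT pre-proB were Pax5 and Pou2af1, the latter a B-cell coactivator. With lists cut to 76465 peaks the Pax5 promoter had no WT pre-proB peak, while that of Pou2af1 kept one. With 38232 peaks neither had one. The study describes the Pax5 locus as still accessible in Erg KO pre-proB cells. Over the loci of those 13 genes 17 of 196 WT pre-proB peaks had no Erg KO peak (8.67%, beside 6.88% of the whole list) and 15 of 196 Erg KO peaks had no WT peak (7.65%, beside 13.6%). At the proB stage 70 of 251 Rescue peaks had no WT peak (27.9%, beside 19.8%) and 34 of 216 WT peaks had no Rescue peak (15.7%, beside 20.6%).

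Across the 7 libraries the number of peaks at Bach2, taken as a share of its list, was most like that at Rin3, Serinc5 and Nmur1, with Pearson r of 0.96, 0.95 and 0.94 over 7 libraries. For Prdm1 the nearest were Snx9 (r = 0.98), Pdcd1lg2 (0.94) and Capzb (0.92), for Bcl6 Ltbp1 (0.91), Sh3rf1 (0.89) and Tcf7l2 (0.86), for Bach1 M1ap (0.96), Zfp704 (0.95) and Hoxd12 (0.95), and for Xbp1 Scn4a (0.98), Hjurp (0.97) and Trpm8 (0.97). Each is the highest of 2066 or 2067 genes compared, all values of a gene come from the same 7 lists, and they are given as description.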

How the data were processed

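ATAC-seq was performed by the study on sorted mouse pre-proB, proB and preB cells, with 1 library per group and 7 libraries in all. Per the labels and the study's methods, the authors based calls on CASAVA 1.8.2, aligned paired-end reads to mm10 with Bowtie2, used Picard and called peaks per library with MACS2, with no pooling. Their options, duplicate handling, read-end shift and any control were not given in any source used here, and those sources name both Tn5 and sonication for fragmentation. These steps set how many weak peaks are called. The deposited lists hold for each peak a score, the summit's fold (ratio over background), a −log10 p-value and a −log10 q-value. Summit fold was used for levels, and −log10 q for percentiles and for shortening lists.

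All values were computed with Python 3.11.15, pandas 2.3.3, NumPy 2.4.6 and SciPy 1.17.1. Every deposited fold was a whole multiple of a library-specific step, within a tolerance of 0.02, which gave summit pileups and background. Peaks were shared if they overlapped by 1 bp or more, promoters were 1000 bp on each side of a GENCODE M21 basic start site, and fold ratios were centred on the median of all shared regions. Overlap counting was tested on simulated data with known overlaps. Wilson intervals are given for shares and exact Poisson intervals for pileups, at 95%. No group had replicates, so no test was run and no p-values are given. The 5 genes, the pathway lists, the patterns and the comparisons were chosen with earlier results of these data known. Regions named were all promoter regions, the 3 highest-ranked non-promoter regions per gene and the 2 strongest unshared regions per comparison and direction, and others were chosen after their values were seen. Alternatives were shorter lists, stricter overlap, other windows, leaving out Bach2, Rescue stages by source name, uncentred ratios, score percentiles and pattern windows of 200 and 400 bp. Values of some single genes of the lists are not reported here.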

Additional observations from a re-analysis of the deposited data

Results flagged for a closer look

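Peak counts moved in opposite directions between stages in WT and Rescue at 4 of the 5 loci. None of these differences was tested because each stage was 1 library, and the counts are not adjusted for the lengths of the lists. Taken as a share of each list, Bach1 from pre-proB to proB and Bach2 from proB to preB rose in both genotypes. Bcl6 and Prdm1 moved in opposite directions by share as well, at both steps. From pre-proB to proB, Bach1 went from 18 to 19 in WT and from 19 to 18 in Rescue, a difference of 2 between the changes. Bcl6 went from 10 to 14 in WT and from 18 to 13 in Rescue, a difference of 9. Prdm1 went from 17 to 13 in WT and from 17 to 21 in Rescue, a difference of -8, and 4 of the Rescue proB peaks were the intronic ones called in no other library. From proB to preB, Bach2 went from 51 to 44 in WT and from 53 to 56 in Rescue, a difference of -10. Bcl6 went from 14 to 10 in WT and from 13 to 14 in Rescue, a difference of -5. Prdm1 went from 13 to 15 in WT and from 21 to 16 in Rescue, a difference of 7. The stage of each Rescue library is by its title.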

How the results depend on the processing

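Each of the 5 genes kept a promoter peak in all 7 libraries with shorter lists and with a promoter window of 2500 bp, although the weaker of the 2 Prdm1 promoter regions was lost. Of 120 shares of unshared peaks recomputed, 79 stayed within the counting interval of the reported share and 41 moved. Shares are of peaks of the first library without a peak in the second, and the share of the whole list under the same setting follows each in parentheses. With an overlap of at least 50% of both peaks 11 of 18 moved, all upward: WT pre-proB without Erg KO 13.3% (11.5%), WT pre-proB without Rescue 11.4% (11.0%), WT proB without Rescue 26.4% (28.6%) and the converse 31.0% (28.4%), WT preB without Rescue 24.7% (14.7%), WT pre-proB without WT proB 37.1% (47.1%) and the converse 37.7% (44.8%), WT proB without WT preB 45.3% (34.2%) and the converse 34.8% (21.1%), Rescue proB without Rescue pre-proB 31.9% (36.0%), and Rescue preB without Rescue proB 29.6% (19.4%). With all lists at 76465 peaks by −log10 q, the shortest length, 7 moved: Erg KO without WT pre-proB 3.53% (8.34%), Rescue without WT pre-proB 7.95% (8.63%), Rescue without WT preB 17.6% (12.8%), WT proB without WT preB 16.2% (18.6%), Rescue proB without Rescue preB 17.9% (15.2%), Erg KO without Rescue pre-proB 0% (6.47%), and the converse 5.68% (6.85%). With 38232 peaks per list 11 moved: Erg KO without WT pre-proB 0% (6.05%), WT without Rescue pre-proB 12.5% (5.68%) and the converse 4.55% (6.1%), WT proB without Rescue 31.7% (17.4%), Rescue preB without WT 5.56% (9.61%), WT pre-proB without WT proB 43.8% (36.2%), WT proB without WT preB 22.0% (17.1%), Rescue proB without Rescue pre-proB 15.8% (28.7%), Rescue proB without Rescue preB 18.4% (12.3%), Erg KO without Rescue pre-proB 10.9% (4.79%) and the converse 6.82% (5.02%). These lists held 291 peaks at the 5 loci (748 reported) in 67 regions (173 reported). With Rescue stages from the source names 7 moved: WT pre-proB without Rescue 28.6% (35.6%) and the converse 30.6% (27.3%), WT proB without Rescue 23.6% (31.0%) and the converse 33.6% (40.2%), Rescue proB without Rescue pre-proB 35.3% (41.0%), Erg KO without Rescue pre-proB 30.6% (39.8%) and the converse 29.6% (26.9%). Without Bach2 4 moved: WT preB without Rescue 2.22% (8.02%) and the converse 15.4% (17.9%), Rescue proB without Rescue preB 20% (19.1%) and the converse 3.85% (12.9%). With gene bodies alone the loci held 484 peaks and WT without Rescue pre-proB was 1.54% (5.88%). Counts of shared regions past 2-fold became, by a shift of 25 percentile points, 2 for WT and Erg KO pre-proB, 3 for WT and Rescue pre-proB and 4 for WT and Rescue preB (0 reported for each), 9 for WT proB and preB (5 reported) and 7 for Rescue proB and preB (4 reported), and without centring 1 for WT and Rescue preB. For these percentile and uncentred counts the share over all shared regions was not examined. In windows of 200 bp the BCL6 or STAT pattern was in 1.73% (2.61% of all regions) and the E protein pattern in 12.7% (20.2%). Shorter lists and narrower windows hold fewer peaks and matches by construction. A stricter overlap rule can only raise a share of unshared peaks. For the other shifts the cause was not tested. No paired analysis was possible because each group was 1 library and the labels carry no replicate numbers. The study's methods state a minimum number of reads, the depth of each library was not analysed here, and a missing weak peak can reflect the calling threshold.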
